A study of Danio rerio with 4 samples.

Results

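The mitochondrial genome of the zebrafish was described by the 37 genes that the deposited expression table places on it, out of 27472 genes in all. A gene was a member if its name began with mt- or if its name was that of the mitochondrial reference sequence. This rule uses no measured value, although it was set with earlier results of these data known. Of the 37, 13 carried a gene symbol, all of them protein-coding, and 24 carried only an Ensembl identifier and no description. A RefSeq gene table lists 13 protein-coding, 2 ribosomal RNA and 22 transfer RNA genes on the same genome, so 24 non-coding genes stand beside the 13, the same number as that of the unnamed members. The sources used here do not pair those identifiers with names, so the unnamed members are called unnamed below and no rRNA or tRNA is named.

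RNA was sequenced from zebrafish of strain AB at 72 hours post fertilization (hpf). The exposed group, BPC, had 4 µM bisphenol C, a bisphenol whose effect on liver and gut cell proliferation is the subject of the series, and the control group had dimethyl sulfoxide (DMSO), the solvent. Treatment of both began at 4 hpf, and each group had 2 libraries, numbered 1 and 3. The number of larvae in a library and whether libraries came from separate clutches are not stated. Each p-value thus sets a difference against the variation among these libraries, some of which may be technical. That variation is partly that of the gene itself and partly that of genes of like level.

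Animal mitochondria keep a small circular genome whose protein-coding genes all specify subunits of the enzymes of oxidative phosphorylation (OXPHOS). These are complex I, which takes electrons from NADH, complex III, which passes them to cytochrome c, complex IV, which passes them to oxygen, and ATP synthase, which uses the resulting proton gradient to make ATP. The remaining subunits of these enzymes, and all of complex II, come from nuclear genes. In vertebrates mitochondrial transcripts are made as long precursors from both strands and are then cut apart, mostly at the tRNAs that lie between the messages, so levels of genes from 1 precursor are not independent of each other.

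Levels are given in FPKM, fragments scaled to transcript length and to the mapped fragments of the library, the unit the authors deposited. Changes are given on the log2(FPKM + 1) scale as BPC minus DMSO, with limma's standard error (SE) and a Benjamini-Hochberg adjusted p over the 19873 genes that reached 0.5 FPKM in at least 2 libraries, called at 0.05. All 37 members passed that filter. The libraries were unequal in make-up: the authors' values summed to 422245 and 425611 FPKM in the BPC libraries and to 355583 and 355364 in the DMSO libraries, 85 cytosolic ribosomal protein genes took 14.7 and 12.3% of the sum in BPC and 8.83 and 8.61% in DMSO, and 13 globin genes took 2.87 and 2.88% in BPC and 1.26 and 1.23% in DMSO. The part of these shares in the results below was not tested. RNA came from a preparation of many tissues, in which fewer mitochondria or cells of a type and less mitochondrial RNA per cell cannot be told apart.

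All 13 protein-coding genes had lower levels in both BPC libraries than in either DMSO library. Such separation was also seen, with BPC below DMSO, in 45.1% of all genes tested. With limma, 6 of the 13 fell (46.2%) and 0 rose, against 17.5% of all genes called lower and 7.06% called higher (24.6% in either direction), and 10 of the 13 had an unadjusted p under 0.05. The 6 that fell were mt-atp6, mt-atp8, mt-nd2, mt-cyb, mt-nd4l and mt-nd3. The median log2 change of the 13 was -0.45, beside -0.12 for all genes tested. Their summed level was 26604 and 23782 FPKM in BPC and 36005 and 38745 FPKM in DMSO, a ratio of 0.674. The calls rest on both DMSO libraries: without either of them the calls of the 13 were lost, as were most calls over all genes. Without DMSO replicate 1, the median log2 change of the 13 was -0.48, beside -0.13 for all genes tested. Without DMSO replicate 3 it was -0.42, beside -0.10. With no filter on low values 0 of the 13 passed limma's test (lowest adjusted p = 0.0505, with 9 under an unadjusted p of 0.05). In that fit 2020 of 26929 genes were called lower. The log2 change of each of the 13 stayed below 0 in these and all other planned settings. Only settings that rescale the libraries could have turned that sign, because the groups did not overlap in any of the 13. When each library was scaled to the sum of the 13 itself, 9 of the 13 lay above 0. That scaling fixes the total of the 13, so they cannot all be lower under it.

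How many genes pass depends on how libraries are scaled, for the whole table and for the members alike. Lower calls were 71.3% of all calls on the authors' scale, 90.6% with TPM scaling and 44.998% with median centring, and the median log2 change of all genes moved by -0.25 and 0.15 with these scalings. Relative to the median of all genes, the median of the 13 was -0.33 on the authors' scale, -0.34 with TPM scaling, -0.33 with median centring and -1.10 with quantile normalization. On that relative scale mt-atp6 stood at -1.16 on the authors' scale, at -1.17 with TPM scaling and at -1.61 with quantile normalization.

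**Figure D1:**
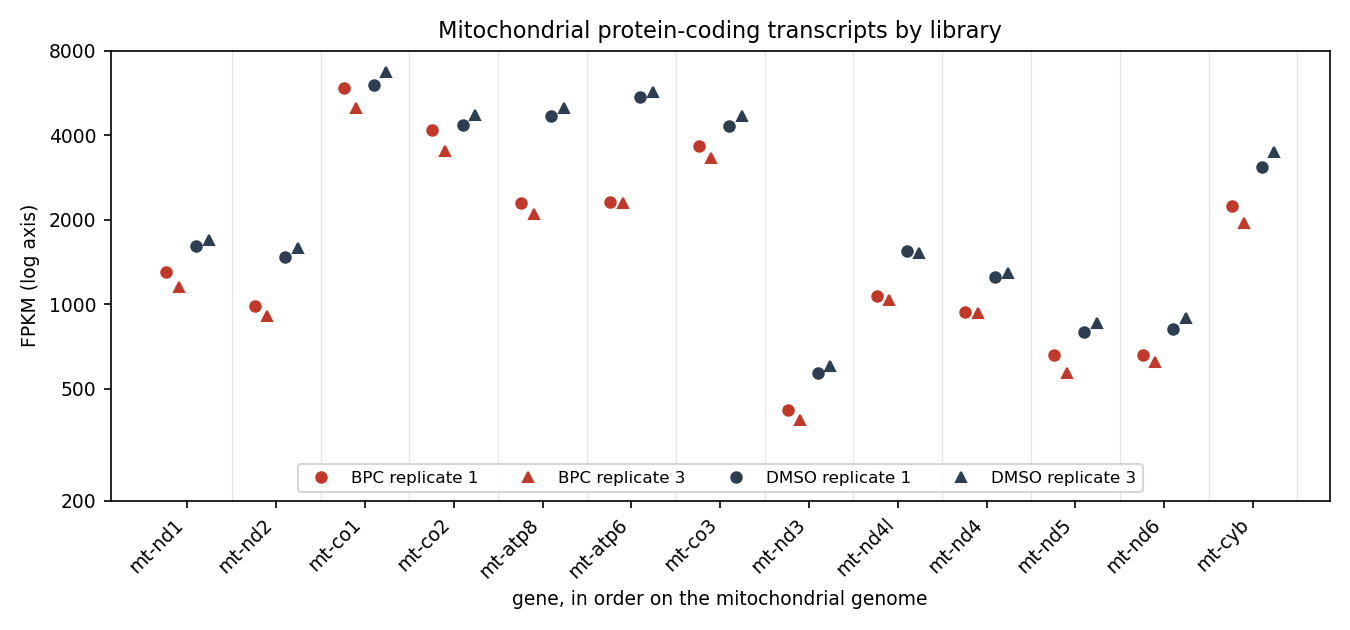
FPKM (log axis) of the 13 mitochondrial protein-coding genes in each library, BPC replicates in red to the left and DMSO replicates in dark blue to the right of each gene, in their order on the mitochondrial genome. Every BPC point lies below both DMSO points of its gene, narrowly for mt-co1 and mt-co2 and with the widest gap for mt-atp6 and mt-atp8.

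ATP synthase receives 2 subunits from the mitochondrial genome, and these had the largest falls of the 13. The gene mt-atp6 (ENSDARG00000063911) encodes subunit a, which forms the proton channel together with the ring of c subunits. It was measured at 2318 and 2293 FPKM in the BPC libraries and at 5468 and 5695 FPKM in the DMSO libraries. The BPC pair differed by less than the DMSO pair, and the lower DMSO library was well above both. The log2 change was -1.28 (SE 0.17, 95% interval -1.69 to -0.86, limma adjusted p = 0.00605), which is 2.42-fold lower in BPC.

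The gene mt-atp8 (ENSDARG00000063910) encodes a small membrane subunit of the same enzyme. Its level was 2299.9 and 2099 FPKM in the BPC libraries and 4677 and 5005 FPKM in the DMSO libraries. Again the groups were far apart relative to the spread within them, with a log2 change of -1.14 (SE 0.18, 95% interval -1.56 to -0.71, limma adjusted p = 0.00822), 2.20-fold lower in BPC. The reading frames of both genes overlap in vertebrates and in mammals they share 1 messenger RNA, so fragments can belong to either and the split between them is uncertain. Summed over the pair, the level was 4618 and 4391 FPKM in BPC and 10145 and 10700.0 FPKM in DMSO, a ratio of 0.432. In the order of the 13 levels, mt-atp6 and mt-atp8 had ranks 4 and 5 in both BPC libraries, behind the 3 complex IV genes, while in both DMSO libraries they ranked directly below mt-co1.

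Complex III takes 1 subunit from the mitochondrial genome, the cytochrome b gene mt-cyb (ENSDARG00000063924), whose product holds the haem groups that pass electrons across the membrane. It was at 2235 and 1953 FPKM in the BPC libraries and at 3084 and 3489 FPKM in the DMSO libraries. The groups did not overlap, although the libraries of a group differed by more than for mt-atp6. The log2 change was -0.65 (SE 0.18, 95% interval -1.08 to -0.22, limma adjusted p = 0.0426). This call, close to the threshold, was also lost with the smaller pseudocounts, with median centring and with the replicate block.

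Complex I takes 7 subunits from the mitochondrial genome, all of them in its membrane arm, and 3 of the 7 fell. The core subunit gene mt-nd2 (ENSDARG00000063899) was at 984 and 911 FPKM in BPC and at 1472 and 1585 FPKM in DMSO. It had the largest difference of the 7, with a log2 change of -0.69 (SE 0.15, limma adjusted p = 0.0207). The gene mt-nd4l (ENSDARG00000063916), which encodes a short membrane subunit, was at 1070.2 and 1033 FPKM in BPC and at 1548 and 1528 FPKM in DMSO (log2 change -0.55, SE 0.14, limma adjusted p = 0.0365). The gene mt-nd3 (ENSDARG00000063914), the lowest of the 13 in every library, was at 421 and 387 FPKM in BPC and at 569 and 604 FPKM in DMSO (log2 change -0.54, SE 0.13, limma adjusted p = 0.0282). The groups did not overlap in any of these 3 genes. The calls of mt-nd3 and mt-nd4l were lost with median centring and with the replicate block, while mt-nd2 passed in both.

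The other 4 complex I genes were lower in every BPC library by a similar amount but did not pass. The gene mt-nd1 (ENSDARG00000063895), which lies where the membrane arm meets the quinone site, was at 1303 and 1153 FPKM in BPC and at 1609.6 and 1701 FPKM in DMSO (log2 change -0.43, 95% interval -0.80 to -0.06, limma adjusted p = 0.0857). The gene mt-nd4 (ENSDARG00000063917), a proton-pumping subunit, was at 935 and 932 FPKM in BPC and at 1253 and 1298 FPKM in DMSO (log2 change -0.45, 95% interval -0.78 to -0.12, limma adjusted p = 0.0587). Its reading frame overlaps that of mt-nd4l in vertebrates, so the split of fragments between them is uncertain as well. The gene mt-nd5 (ENSDARG00000063921), the outermost pump, was at 657 and 571 FPKM in BPC and at 798 and 856 FPKM in DMSO (log2 change -0.43, 95% interval -0.77 to -0.09, limma adjusted p = 0.0706). The gene mt-nd6 (ENSDARG00000063922) was at 660.2 and 625 FPKM in BPC and at 814 and 892 FPKM in DMSO (log2 change -0.41, 95% interval -0.73 to -0.08, limma adjusted p = 0.0717). It is the only protein-coding gene transcribed from the opposite strand in vertebrates, and the sources used here do not say if counting took account of strand, so antisense RNA may be included. The adjusted p of all 4 lay between 0.05 and 0.1, and none of their 95% intervals reached 0. With TPM scaling and with scaling to nuclear genes all 4 were called lower, as were 7286 and 8823 of the 19873 genes tested. With quantile normalization all 4 were also called lower, beside 2111 of all genes, and with median centring they were not called.

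Complex IV takes its 3 catalytic core subunits from the mitochondrial genome, and 0 of the 3 passed with limma, nor did any have an unadjusted p under 0.05. The gene mt-co1 (ENSDARG00000063905), whose product reduces oxygen, was the highest member in all 4 libraries, at 5899 and 4989.5 FPKM in BPC and at 6043 and 6699 FPKM in DMSO. BPC replicate 1 and DMSO replicate 1 were almost level, and the log2 change of -0.23 had a 95% interval of -0.73 to 0.27 (limma adjusted p = 0.446). The gene mt-co2 (ENSDARG00000063908), which encodes the subunit that receives electrons from cytochrome c, was at 4164 and 3517 FPKM in BPC and at 4359.9 and 4726 FPKM in DMSO (log2 change -0.25, 95% interval -0.71 to 0.22, limma adjusted p = 0.384). The gene mt-co3 (ENSDARG00000063912), the remaining core subunit, was at 3659 and 3319.8 FPKM in BPC and at 4310.15 and 4669.6 FPKM in DMSO (log2 change -0.36, 95% interval -0.81 to 0.08, limma adjusted p = 0.19). The intervals of these 3 genes reach from a fall as deep as that of mt-nd2 to a small rise. With TPM scaling and with scaling to nuclear genes mt-co3 was called lower, as were 7286 and 8823 of all genes, while mt-co1 and mt-co2 were not.

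**Figure D2:**
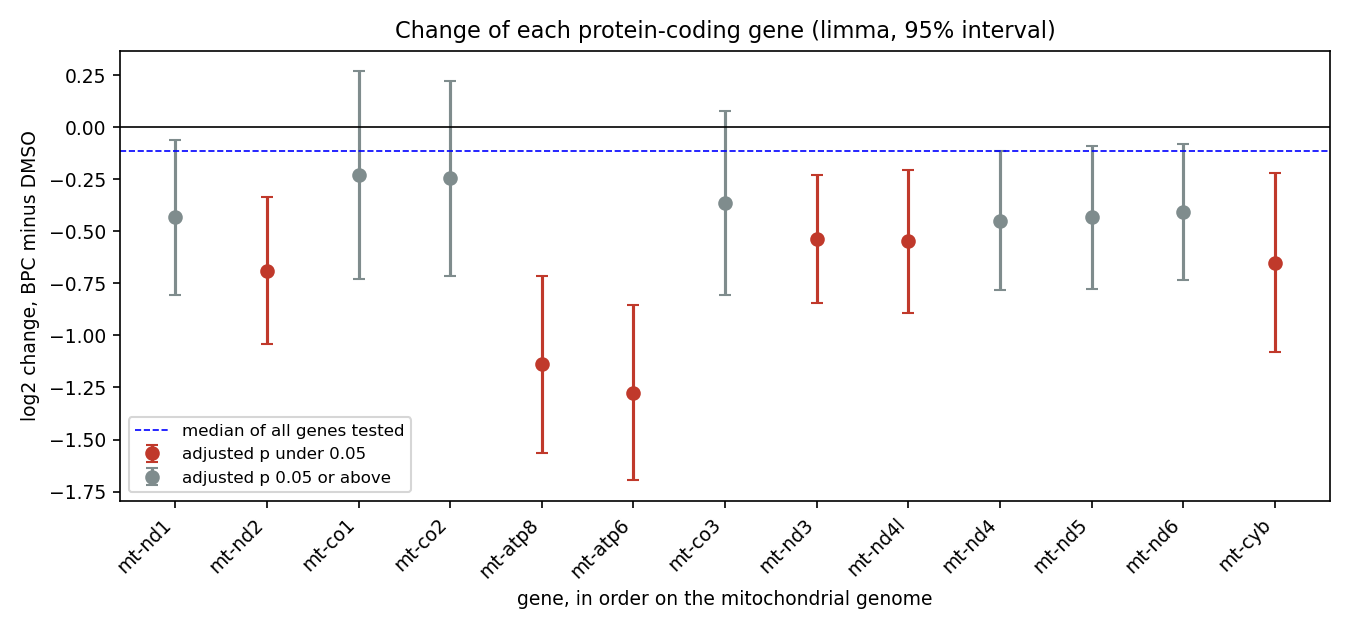
Log2 change, BPC minus DMSO, of each mitochondrial protein-coding gene with limma's 95% interval (bars), for 2 libraries in each group, and the median of all genes tested as a dashed line. The 6 genes in red passed an adjusted p of 0.05, and the values run from -1.28 for mt-atp6 to -0.23 for mt-co1.

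The size of the difference was thus uneven along the genome, and this can be read within a library, where the scaling of the library cancels. Scaling also cancels in the mitochondrial share of all FPKM, but that share depends on the levels of all other genes. The 13 genes took 6.30 and 5.59% of the sum in BPC and 10.1 and 10.9% in DMSO. With ribosomal protein and globin genes left out of the sum, all 37 members took 8.90 and 7.94% in BPC and 12.8 and 13.8% in DMSO.

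Within the sum of the 13, mt-atp6 made up 8.71 and 9.64% in BPC and 15.2 and 14.7% in DMSO, and mt-atp8 made up 8.64 and 8.82% in BPC and 12.99 and 12.9% in DMSO. Together these ATP synthase genes were 17.4 and 18.5% of the sum in BPC and 28.2 and 27.6% in DMSO. The shares that were higher in BPC by the widest margin were those of complex IV. Of the sum, mt-co1 made up 22.2 and 21.0% in BPC and 16.8 and 17.3% in DMSO, and the 3 complex IV genes together 51.6 and 49.7% in BPC and 40.9 and 41.5% in DMSO. The groups did not overlap in any of the ATP synthase and complex IV shares, which add up to 1 whole and are therefore not independent. Shares of the other genes lay closer together. Those of mt-nd1, mt-nd3, mt-nd4, mt-nd5 and mt-nd6 were also higher in BPC without overlap, narrowly for mt-nd3 and mt-nd4. The share of mt-nd1 was 4.90 and 4.85% in BPC and 4.47 and 4.39% in DMSO. The share of mt-cyb was 8.40 and 8.21% in BPC and 8.57 and 9.004% in DMSO, that of mt-nd2 was 3.70 and 3.83% in BPC and 4.09 and 4.09% in DMSO, and that of mt-nd4l, in which the groups overlapped, was 4.02 and 4.35% in BPC and 4.30 and 3.94% in DMSO. The shares are given as values with no test of their own.

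**Figure D3:**
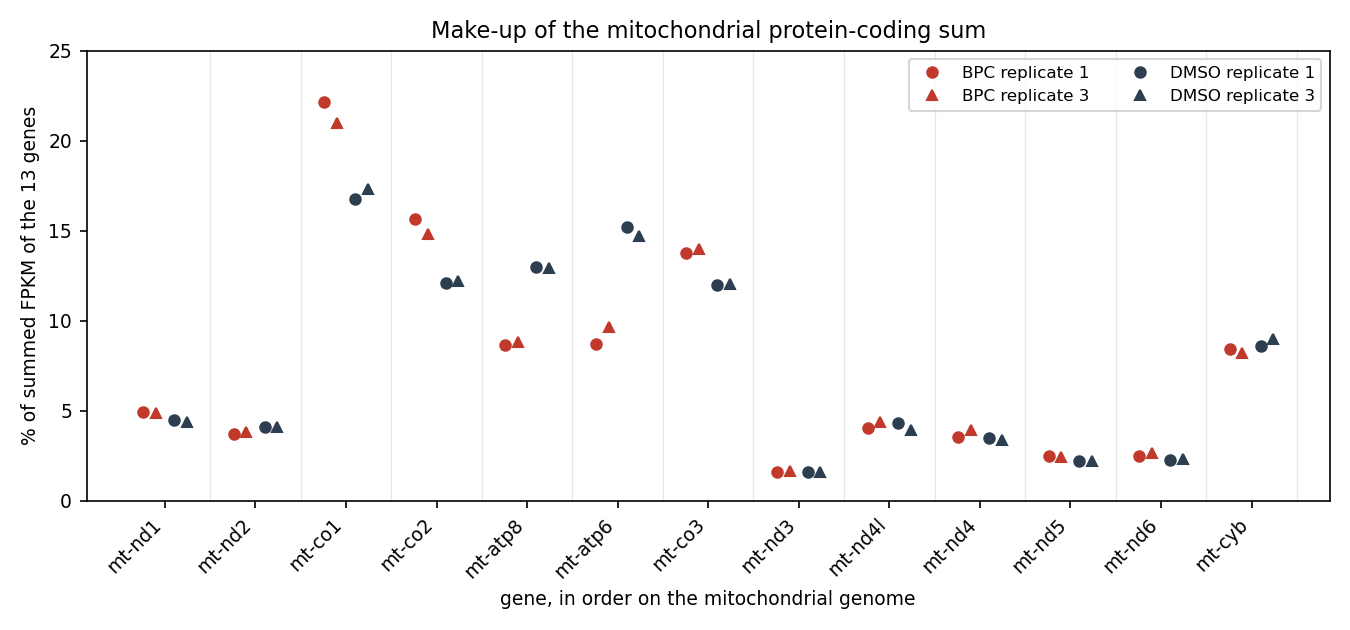
Share (%) of each gene in the summed FPKM of the 13 mitochondrial protein-coding genes, by library, BPC replicates in red to the left and DMSO replicates in dark blue to the right of each gene. The BPC points are lower for mt-atp6 and mt-atp8 and higher for mt-co1, mt-co2 and mt-co3, with smaller gaps or overlap in the other genes.

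Scaling each library to the same sum of the 13 genes was a setting chosen after the values had been seen. It fixes their total, so lower levels of some of the 13 raise those of others. On that scale 2 of the 13 were called lower and 0 higher. They were mt-atp6 (log2 change -0.71, limma adjusted p = 0.0115) and mt-atp8 (-0.57, limma adjusted p = 0.019). On that scale mt-co1 and mt-co2 had log2 changes of 0.34 and 0.32 and did not pass (limma adjusted p = 0.111 and 0.112). The genes mt-nd3 and mt-nd4l, called lower on the authors' scale, had log2 changes of 0.03 and 0.02 on this one (limma adjusted p = 0.829 and 0.904).

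Ratios of neighbouring genes give the same contrast in each library. In the RefSeq gene order mt-atp6 is followed directly by mt-co3, and the ratio of mt-atp6 to mt-co3 was 0.634 and 0.691 in BPC and 1.27 and 1.22 in DMSO. Of these neighbours mt-atp6 was the lower in both BPC libraries and the higher in both DMSO libraries. On the other side, the ratio of mt-atp8 to mt-co2, which has a tRNA gene between, was 0.552 and 0.597 in BPC and 1.07 and 1.06 in DMSO. Here too mt-atp8 was below its neighbour in both BPC libraries and above it in both DMSO libraries.

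Other pairs differed less or not beyond their spread. The ratio of mt-nd2 to mt-nd1 was 0.755 and 0.790 in BPC and 0.914 and 0.931 in DMSO, and that of mt-cyb to mt-co1 was 0.379 and 0.391 in BPC and 0.510 and 0.521 in DMSO. The ratio of mt-co2 to mt-co1 was 0.706 and 0.705 in BPC and 0.722 and 0.705 in DMSO. The ratio of mt-co2 to mt-co1 overlapped between the groups, as did that of mt-nd5 to mt-nd1, with 0.504 and 0.495 in BPC and 0.496 and 0.503 in DMSO. The ratio of mt-nd6 to mt-nd5, which are on opposite strands, was 1.004 and 1.09 in BPC and 1.02 and 1.04 in DMSO and overlapped likewise. For the pair of overlapping frames, mt-atp8 to mt-atp6, the ratio was 0.992 and 0.915 in BPC and 0.855 and 0.879 in DMSO, higher in BPC by a small margin.

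The BPC libraries also differed from each other. All 13 genes were lower in BPC replicate 3 than in BPC replicate 1, narrowly for mt-nd4 and by the widest margin in FPKM for mt-co1, while 1 of the 13, mt-nd4l, was lower in DMSO replicate 3 than in DMSO replicate 1. Without BPC replicate 1, the median log2 change of the 13 was -0.53, beside -0.13 for all genes tested. Without BPC replicate 3 it was -0.45, beside -0.10.

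The 24 unnamed members went in both directions. Of them 4 rose and 4 fell, 16.7% in each direction, beside 7.06% of all genes called higher and 17.5% called lower, and 16 did not pass. In 9 the BPC libraries lay below both DMSO libraries and in 8 above both, against 45.1% and 23.0% of all genes, and in 7 the groups overlapped. Their median log2 change was -0.07. The split moved with scaling, as did the calls over all 19873 genes tested. With TPM scaling it was 9 lower and 2 higher, beside 7286 lower and 759 higher of all genes. With scaling to nuclear genes it was 11 lower and 2 higher, beside 8823 lower and 655 higher of all genes. With scaling to the sum of the 13 messages it was 1 lower and 14 higher, beside 1033 lower and 7365 higher of all genes. The split of the 24 also moved when 1 library was left out, as did the calls over all genes tested. Libraries were made from RNA selected by its poly(A) tail, and tRNAs and rRNAs have none or short ones. The level of such a gene is thus set by what escaped or passed that selection. The 13 messages went through the same selection, and its part in their levels was not tested. The library inserts were also longer than a tRNA, so a fragment counted on a tRNA gene reaches into its neighbours.

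Levels of the unnamed members ran over a wide range, up to 836 FPKM in BPC and 2244 FPKM in DMSO and down to 0.782 FPKM in BPC and 1.33 FPKM in DMSO. The 4 described here were chosen after their values had been seen. The highest by its mean over the 4 libraries, ENSDARG00000081369, was at 782 and 708 FPKM in BPC and at 2151 and 2244 FPKM in DMSO. It had the deepest fall of the 37 members, with a log2 change of -1.56 (SE 0.15, limma adjusted p = 0.00242), and on the scale of the 13 messages it was also called lower (-0.99, limma adjusted p = 0.0027). A lower one, ENSDARG00000082716, was at 31.1 and 31.0 FPKM in BPC and at 53.3 and 81.2 FPKM in DMSO (log2 change -1.06, SE 0.19, limma adjusted p = 0.0131). Its fall is clear of the spread, although the DMSO libraries differed by 1.52-fold.

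Of the members that rose, ENSDARG00000083480 was at 4.27 and 3.73 FPKM in BPC and at 1.33 and 1.61 FPKM in DMSO (log2 change 1.02, SE 0.14, limma adjusted p = 0.00613). It is one of the lowest members and its replicates were close, but its q-value in the authors' deposited table was 0.426. The largest rise was that of ENSDARG00000082753, at 163 and 737 FPKM in BPC and at 63.8 and 81.4 FPKM in DMSO (log2 change 2.25, SE 0.62, limma adjusted p = 0.0431). Its BPC libraries differed by 4.53-fold, so the size of the rise is poorly known, and its call was lost with the smaller pseudocounts, with quantile normalization and with the robust fit. The log2 changes of all 4 kept their sign in each planned setting. Only settings that rescale the libraries could have turned it, because the groups did not overlap in these 4. The calls of all 4 rest on DMSO replicate 3, and those of all but ENSDARG00000082716 on DMSO replicate 1 as well.

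**Figure D4:**
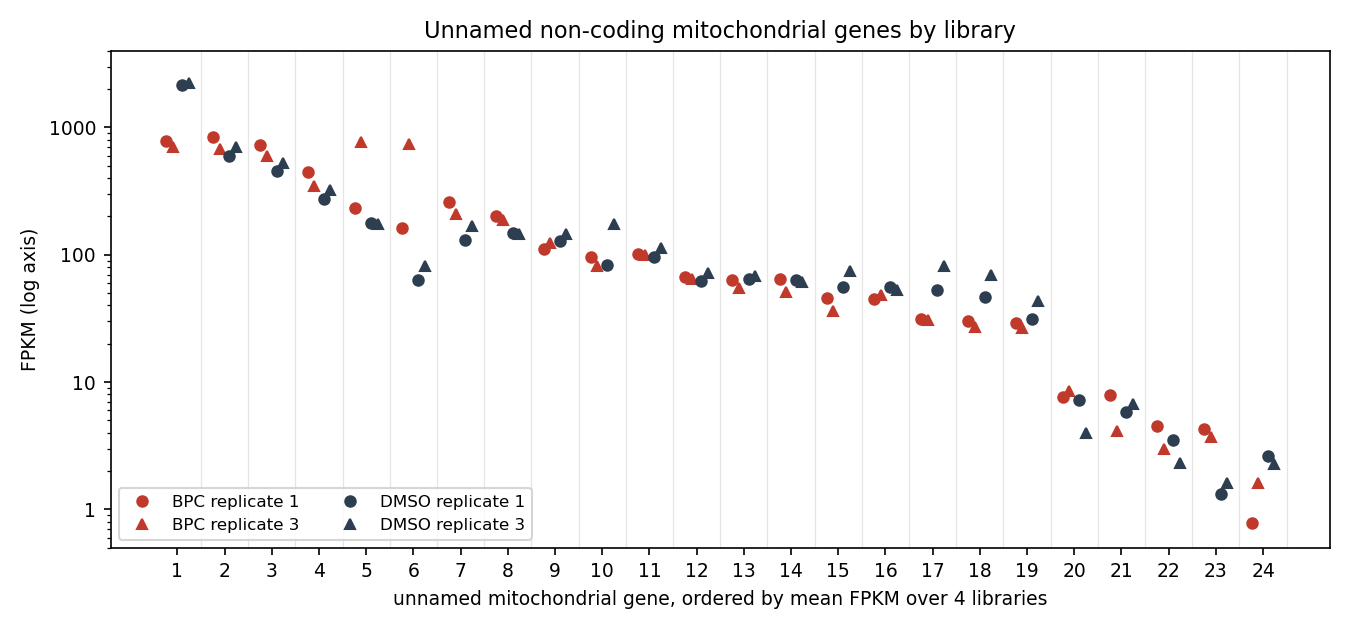
FPKM (log axis) of the 24 unnamed members in each library, ordered by their mean over the 4 libraries, BPC replicates in red to the left and DMSO replicates in dark blue to the right of each gene. The first gene, ENSDARG00000081369, is far lower in BPC, and in the fifth and sixth genes BPC replicate 3 stands well above BPC replicate 1.

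The mitochondrial subunits were set beside the nuclear subunits of the same enzymes, 91 genes of which 89 were tested. The inhibitory factor genes atp5if1a and atp5if1b of ATP synthase are counted among them. Of the 89, 26 fell (29.2%) and 4 rose (4.49%), with a median log2 change of -0.26, beside 17.5% lower, 7.06% higher and a median of -0.12 for all genes tested. The summed level of the 13 mitochondrial genes over that of the nuclear subunits was 3.95 and 3.53 in BPC and 4.66 and 5.07 in DMSO. By sums the mitochondrial side was thus lower against the nuclear side in both BPC libraries, a difference of -0.38 in log2. With medians of log2 values in place of sums, the difference was -0.10.

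The gap between the genomes was widest in ATP synthase. There the ratio of mitochondrial to nuclear sums was 2.02 and 1.88 in BPC and 3.72 and 4.04 in DMSO. In complex I it was 3.15 and 2.91 in BPC and 3.58 and 3.69 in DMSO, and in complex III 3.92 and 3.52 in BPC and 4.72 and 5.38 in DMSO. In complex IV it was 7.49 and 6.56 in BPC and 7.60 and 8.47 in DMSO, where BPC replicate 1 and DMSO replicate 1 nearly met. The groups did not overlap in any of these 4 enzymes.

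**Figure D5:**
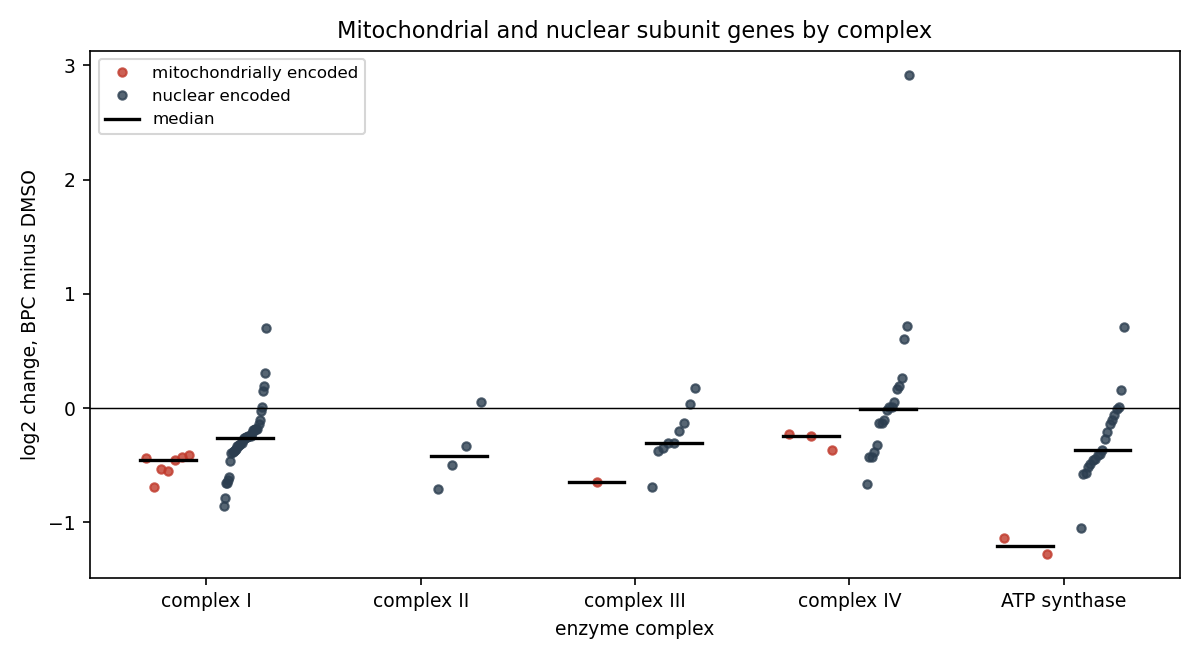
Log2 change, BPC minus DMSO, of mitochondrially encoded (red, left) and nuclear encoded (dark blue, right) subunit genes of each OXPHOS enzyme, 1 point per gene tested, with medians as black lines. The mitochondrial ATP synthase genes lie below all 19 nuclear genes of that enzyme, and the single high point in complex IV is cox4i1l.

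Nuclear ATP synthase genes fell in 8 of 19 cases (42.1%) and rose in 1. The 8 include the inhibitory factor genes atp5if1a and atp5if1b, whose products are not subunits of the enzyme. The shares that fell in complexes I, III and IV, 25.6%, 22.2% and 22.2%, lay nearer to the 17.5% of all genes called lower. The inhibitory factor genes atp5if1a (log2 change -1.05) and atp5if1b (-0.57) and the membrane subunit gene atp5mf (-0.45) fell, while atp5mc3b, a gene for the c subunit of the proton ring, rose (0.71). The call of atp5mc3b was lost with scaling to nuclear genes and with quantile normalization. The other c subunit genes atp5mc1 (-0.52, limma adjusted p = 0.0258) and atp5mc3a (-0.41, limma adjusted p = 0.0381) fell. In complex I, 10 of 39 fell, ndufv3 (-0.86), ndufb6 (-0.79) and ndufa2 (-0.65) among them, and ndufa4, which is counted with complex IV in mammals, rose (0.70). In complex II, which has no mitochondrial gene, 2 of 4 fell, sdhb (-0.70) and sdha (-0.50), the iron-sulphur and flavoprotein subunits. In complex III, 2 of 9 fell, uqcrq (-0.69) and the cytochrome c1 gene cyc1 (-0.37). The call of cyc1, close to the threshold (limma adjusted p = 0.0462), was lost with median centring and with the replicate block. In complex IV, 4 of 18 fell, cox4i2 (-0.66) and COX5B (-0.43) among them, and 2 rose, cox4i1l (2.92) and cox6b1 (0.72).

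Of 36 tested genes for mitochondrial transcription and RNA handling, 2 fell (5.56%, beside 17.5% of all genes) and 0 rose (beside 7.06%), with a median log2 change of -0.13: the mitochondrial ribosomal protein gene mrpl12 (-0.63) and hsd17b10 (-0.52), in humans a part of the RNase P that cuts tRNAs out of the precursor. The mitochondrial RNA polymerase gene polrmt was at 2.39 and 2.61 FPKM in BPC and at 3.27 and 2.90 FPKM in DMSO (log2 change -0.22, limma adjusted p = 0.253). The gene tfam, for the factor that packs mitochondrial DNA and starts transcription, was at 18.2 and 17.3 FPKM in BPC and at 16.6 and 15.9 FPKM in DMSO (log2 change 0.12, limma adjusted p = 0.435), and its sign turned with the scaling. The messenger-stabilising gene lrpprc had a log2 change of -0.18 (limma adjusted p = 0.338).

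Of 21 genes for mitochondrial DNA maintenance and nucleotide supply, 3 rose (14.3%, beside 7.06% of all genes) and 0 fell (beside 17.5%): the nucleotide carrier gene slc25a33 (log2 change 0.86), the nuclease and helicase gene dna2 (0.59) and the primase gene primpol (0.53). The calls of dna2 and primpol were lost with TPM scaling, with scaling to nuclear genes and without BPC replicate 1. Of 16 mitochondrial tRNA synthetase genes 2 fell (12.5%), cars2 (-0.47) among them. Of 21 translation factor genes 3 fell (14.3%), the elongation factor genes gfm1 (-0.88) and tufm (-0.57) and the membrane insertase gene oxa1l (-0.65). Of 48 assembly factor genes 10 fell (20.8%) and 0 rose, sdhaf2 (-0.76), uqcc1 (-0.69), foxred1 (-0.66) and ndufaf6 (-0.59) among them. The shares that fell in these 3 lists lay near the 17.5% of all genes.

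Of 19 regulators of mitochondrial biogenesis, 6 fell (31.6%, beside 17.5% of all genes) and 1 rose (5.26%, beside 7.06%). The coactivator gene ppargc1a was at 2.35 and 3.78 FPKM in BPC and at 6.40 and 6.52 FPKM in DMSO (log2 change -0.90, limma adjusted p = 0.0187). Its relative ppargc1b (-0.57), the nuclear receptor gene esrra (-0.67) and the AMP-activated kinase gene prkaa2 (-0.83) also fell.

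Of 37 genes for mitochondrial mass and import, 8 fell (21.6%, beside 17.5% of all genes) and 2 rose (5.41%, beside 7.06%). The phosphate carrier gene slc25a3a (log2 change -3.25), phb2b (-0.67), timm9 (-0.67) and the inner membrane fusion gene opa1 (-0.58) fell. The relative of slc25a3a, slc25a3b, had far higher levels, 144 and 164 FPKM in BPC and 166 and 168 FPKM in DMSO. It was not called (log2 change -0.12, limma adjusted p = 0.476). The summed level of the list was higher in BPC, at 4672 and 3969 FPKM, than in DMSO, at 3430 and 3424 FPKM. The gene slc25a5 was the largest part of that sum (0.57, limma adjusted p = 0.0523). The outer membrane channel gene vdac1 was at 129 and 119 FPKM in BPC and at 90.3 and 96.4 FPKM in DMSO and rose (0.41, limma adjusted p = 0.0407), a call lost under 10 of 15 settings. The citrate synthase gene cs was at 80.4 and 58.9 FPKM in BPC and at 84.8 and 87.4 FPKM in DMSO (log2 change -0.32, limma adjusted p = 0.184). Of 22 genes of mitochondrial stress responses, 3 rose and 3 fell (13.6% each), with pck2 (0.73) and phgdh (0.76) higher and ddit3 (-1.16) and trap1 (-0.51) lower. The calls of pck2 and phgdh were lost with TPM scaling and with scaling to nuclear genes, and that of trap1 with median centring. Over all 309 tested genes of the nuclear lists, 60 fell (19.4%) and 13 rose (4.21%), with a median of -0.17, near the 17.5%, 7.06% and -0.12 of all genes. With TPM scaling 149 fell and 5 rose, and with median centring 30 fell and 25 rose. Without DMSO replicate 1, and likewise without DMSO replicate 3, 3 fell and 1 rose.

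Markers of tissues that differ in mitochondrial content moved in different directions, where 17.5% of all genes were called lower and 7.06% higher. All 6 photoreceptor markers fell, with a summed level of 11.4 to 53.2 FPKM in BPC and 1056 to 1284 FPKM in DMSO. The summed level of 7 skeletal muscle markers was 11589 to 15396 FPKM in BPC and 12964 to 14864 FPKM in DMSO, with 0 called and 0 under an unadjusted p of 0.05. Of 7 ionocyte markers 4 fell and 1 rose (103 to 108 FPKM in BPC, 149 to 153 FPKM in DMSO), of 6 neuron markers 3 fell (268 to 323 FPKM in BPC, 427 to 430.1 FPKM in DMSO) and of 6 hepatocyte markers 2 fell (893 to 1105 FPKM in BPC, 1194 to 1392 FPKM in DMSO). Of 5 cardiac markers 3 rose (80.5 to 85.4 FPKM in BPC, 38.6 to 46.4 FPKM in DMSO), and all 3 erythrocyte markers rose (2459 to 2791 FPKM in BPC, 1172 to 1215 FPKM in DMSO). No marker was at 0 in any library. The part of these tissues in the mitochondrial differences was not tested.

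In the authors' deposited table, 7 of the 13 protein-coding genes had a q-value under 0.05 and were lower and 0 were higher, beside 9.76% lower and 9.68% higher of all genes in the authors' deposited table. Only mt-atp6 and mt-atp8 of the 13 were marked significant by the authors' deposited table, as were 2302 of all 27472 genes. The mark did not follow the q-value alone, as mt-nd2 (log2 ratio -0.69, q = 9.69e-06) was not marked. Of the unnamed members, 1 (ENSDARG00000081369) was lower and 5 were higher at that q-value in the authors' deposited table. ENSDARG00000082753 was among the 5 (q = 0.0191). The q-values of ENSDARG00000082716 (0.0518) and ENSDARG00000083480 (0.426) there were not under 0.05. The authors' deposited table of KEGG pathways for the single pair of BPC replicate 3 and DMSO replicate 3 listed 5 of 136 oxidative phosphorylation genes, beside 424 of 5689 genes overall (the authors' p = 0.978). Of those 5 genes, 2 were mt-atp6 and mt-atp8, with log2 ratios of -1.31 and -1.25 in the authors' deposited table.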

How the data were processed

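The authors deposited FPKM per gene and library, per the file headers, with the ratio (fold) of group means, its log2, and a p-value and q-value, and, for 1 pair of libraries, KEGG gene numbers with a p-value per pathway. Tools named in the submitters' processing notes, without their roles, are StringTie 1.3.4d, HISAT2 2.0.4, cutadapt 1.9, edgeR and DESeq2. With the genome build not given in the sources used here, no coordinates or sequences are printed. RNA was poly(A)-selected with a dUTP-marked second strand, per the labels' protocols. Depth is unknown, because FPKM carries no read totals, so no counting interval is given.

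The FPKM columns were matched to samples by name, with 0 left over. Groups were compared on log2(FPKM + 1) with limma 3.58.1 (R 4.3.3), with group as the only term and an intensity trend (prior 4.47 degrees of freedom), on 2 BPC and 2 DMSO libraries. It was fitted on all 19873 genes that reached 0.5 FPKM in 2 or more libraries, two-sided, with Benjamini-Hochberg adjustment. Changes of low genes are understated on this scale. Sums, shares and ratios are values with no test. The scripts were tested on simulated data.

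The members, 13 nuclear lists (313 of 326 symbols matched) and 7 marker lists (40 of 42 matched) were chosen with earlier results of these data known. All protein-coding members are named, and from each nuclear list up to 4 called genes with the smallest p, plus tfam, polrmt, ppargc1a, cs, vdac1 and lrpprc. Of these, 1 gene is not reported here. The rule also covered rRNA and tRNA members, but these carry no names, so 4 are described by identifier and the rest by counts. Gene order comes from RefSeq (assembly GRCz12tu).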

Additional observations from a re-analysis of the deposited data

How the results depend on the processing

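Counts of genes called moved with filter and scaling. With no filter, 0 of 13 protein-coding members, 1 unnamed member lower and 1 higher, 33 nuclear list genes lower and 5 higher, and 2020 of all genes lower and 748 higher were called. TPM scaling called 11 protein-coding members lower, 9 unnamed lower and 2 higher, 149 list genes lower and 5 higher, and 7286 of all genes lower and 759 higher. Scaling to nuclear genes called 11 protein-coding members lower, 11 unnamed lower and 2 higher, 184 list genes lower and 3 higher, and 8823 of all genes lower and 655 higher. The same without ribosomal protein and globin genes called 10 protein-coding members lower, 8 unnamed lower and 2 higher, 125 list genes lower and 4 higher, and 6452 of all genes lower and 734 higher. Median centring called 3 protein-coding members lower, 30 list genes lower and 25 higher, and 1997 of all genes lower and 2441 higher. Quantile normalization called 10 protein-coding members lower, 1 unnamed higher, and 2111 of all genes lower and 1948 higher. The causes were not tested.

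Leaving out 1 library at a time, with a lone library assumed to vary like the other group, gave 0 to 10 protein-coding members lower, 0 to 4 unnamed lower and 0 to 7 higher, 3 to 67 list genes lower and 1 to 23 higher, and 452 to 3983 of all genes lower and 149 to 2040 higher. Same-numbered libraries did not deviate together (correlation 0.00805 over genes). With 2 libraries in each group, this value cannot decide whether same-numbered libraries shared a clutch or day. With a replicate block, 3 protein-coding members were called lower (mt-atp6, mt-atp8 and mt-nd2), and the other counts stayed within 1.5 times.

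Scaling to the sum of the 13 messages, added after seeing the data, fixes their total. It called 2 of the 13 lower and, of the unnamed members, 1 lower and 14 higher, beside 1033 of all genes lower and 7365 higher. It turned the log2 changes of mt-nd1 (0.14), mt-co1 (0.34), mt-co2 (0.32), mt-co3 (0.21), mt-nd3 (0.032), mt-nd4l (0.022), mt-nd4 (0.12), mt-nd5 (0.14) and mt-nd6 (0.16) above 0. The log2 change of tfam turned to -0.13 with TPM scaling, -0.20 with nuclear gene scaling and -0.10 without ribosomal protein and globin genes. The log2 difference in the ratio of mitochondrial to nuclear sums was -0.10 with medians of log2 values. A sum without the overlapping pairs gives no share for the 4 genes of those pairs. Precision is limited by 2 libraries in each group, and depth is unknown.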
